A study of Mus musculus with 2 samples.

Results

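The 9 genes described here select or mark the GABAergic neurons of the embryonic midbrain: the transcription factor genes Gata2, Gata3, Tal1, Tal2, Sox14 and Helt, the glutamate decarboxylase genes Gad1 and Gad2, and the vesicular transporter gene Slc32a1. Their rows were found by matching each symbol to its Ensembl gene ID, and all 9 were present among 43346 Ensembl genes. They were named for their known roles and by symbol, with earlier results of these data known but no threshold on a measured value. The tissue was midbrain of B6NCrl mouse embryos at 15.5 days of age, with no genetic change or treatment named in the labels. Replicate 1 pooled 78 embryos and replicate 2 pooled 62, of both sexes, so each value is an average over many animals. RNA longer than 200 nt was extracted with the mirVana kit, and each library was made from 10 ng with ERCC spike-in RNA. The design held 1 group, and the only contrasts it allows are between genes and between the pools.

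GABA is the main inhibitory transmitter of the brain, and it is made from glutamate by the glutamate decarboxylases GAD67 (Gad1) and GAD65 (Gad2) and loaded into vesicles by the transporter encoded by Slc32a1. In the midbrain, Helt acts in dividing progenitors, and the zinc finger factor Gata2 and the bHLH factor Tal2 switch on in cells leaving the cycle, where they select the GABAergic over the glutamatergic fate. Gata3, Tal1 and Sox14 follow in the differentiating neurons. The same GATA and TAL families are best known for their work in blood, where the proteins bind DNA together with LMO and LDB adaptors.

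The libraries held 38966386 and 40419493 expected counts, and 15347 Ensembl genes reached 1 TPM or more in both. TPM is a level scaled for transcript length and for the library total, and a gene at 1 TPM or more in both libraries is called expressed here. Spike-ins took 2.30% and 2.42% of the counts. Of the midbrain identity genes, 5 of 6 were expressed, led by Meis2 (66.4 TPM) and Otx2 (66.2 TPM), and the fore- and midbrain factor gene Otx1 stood at 9.70 TPM. The genes more particular to midbrain were lower, with En1 at 8.95 ± 1.90 TPM, Pax7 at 2.85 and 3.09 TPM and En2, the gene under the threshold, at 1.21 and 0.76 TPM. Of the 6 genes, 3 were higher in replicate 1 by an exact binomial test of their counts (adjusted p under 0.05), where 10.1% of all genes tested were. Markers of the labelled tissue were thus present, beside forebrain factors given further on. Flipping signs over 2 libraries cannot give a two-sided exact p under 0.5, so differences between genes are given with their SD and no p.

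Reads of a gene can be shared with a near-identical copy, and 3 pairs among the 9 genes are paralogs. To show how far apart they are, the most alike stretch of 60 coding bases found without gaps between the leading coding transcripts is printed for each, in the GRCm38 build, with the differing bases in capitals.
Gad1, chr2:70594678-70594737, plus strand: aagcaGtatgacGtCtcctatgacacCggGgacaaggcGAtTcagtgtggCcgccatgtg
Gad2, chr2:22681342-22681401, plus strand: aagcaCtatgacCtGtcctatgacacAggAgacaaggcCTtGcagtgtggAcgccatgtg
Gata3, chr2:9868773-9868832, minus strand: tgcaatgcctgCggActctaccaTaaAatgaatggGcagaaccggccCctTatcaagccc
Gata2, chr6:88202493-88202552, plus strand: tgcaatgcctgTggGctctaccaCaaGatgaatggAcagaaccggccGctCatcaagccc
Tal1, chr4:115068351-115068410, plus strand: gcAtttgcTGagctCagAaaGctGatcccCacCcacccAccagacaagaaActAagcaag
Tal2, chr4:53785881-53785940, plus strand: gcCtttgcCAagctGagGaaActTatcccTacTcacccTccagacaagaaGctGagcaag

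Even in these stretches the decarboxylase genes shared 51 of 60 bases, Gata3 and Gata2 53, and Tal1 and Tal2 48. The longest run of identical coding bases was 17 nt for Gad1 with Gad2, 17 nt for Gata3 with Gata2 and 11 nt for Tal1 with Tal2. The coding parts measured 1779 and 1755 nt in the GAD genes and 1329 and 1440 nt in Gata3 and Gata2. Tal2, a short protein of little more than its bHLH region, had 324 coding nt against 987 in Tal1.

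All 9 genes were expressed in both libraries, against 35.4% of all Ensembl genes and 62.4% of protein coding genes, which all 9 are. The set was chosen with earlier results of these data known, so the count is a description only. The 2 libraries gave medians of 9.74 and 10.76 TPM (mean 10.3 ± 0.721, SD, n = 2), below the median of all expressed genes (17.0 ± 0.0919 TPM) and that of expressed protein coding genes (20.3 ± 0.0141 TPM). The levels fell into 2 tiers. Gad1, Gata3, Sox14 and Gad2 lay between 50.23 and 104.49 TPM, and Gata2, Slc32a1, Tal1, Tal2 and Helt between 2.78 and 10.76 TPM. In whole-tissue RNA, fewer cells of a type and less RNA per cell cannot be told apart.

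**Figure D1:**
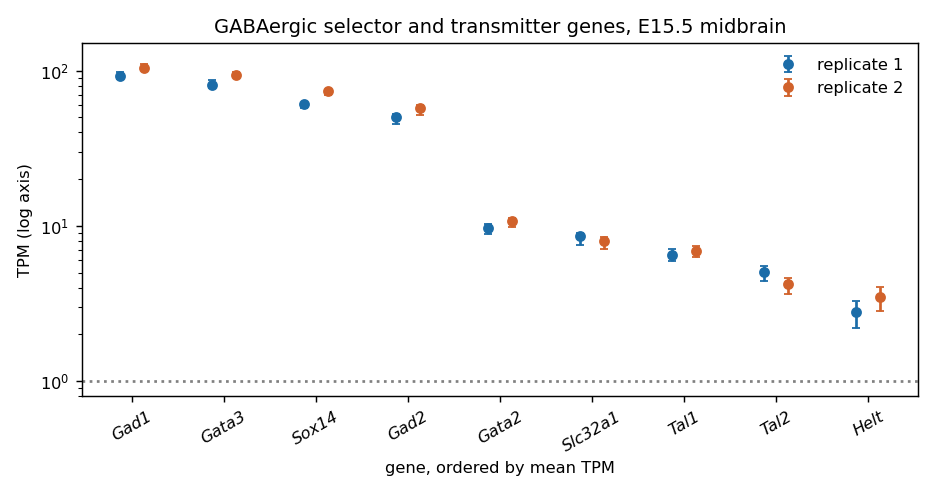
TPM of the 9 genes in replicate 1 (blue) and replicate 2 (orange) on a log axis, ordered by mean, with the bounds of the authors' deposited interval as bars and 1 TPM as a dotted line. The 4 highest genes sit above 50 TPM in both libraries and 5 lie near or under 10 TPM, with Helt lowest at 2.78 and 3.48 TPM.

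Gata2 (chr6:88193891-88207032, plus strand), the selector gene upstream in this lineage, read 9.74 TPM in replicate 1 and 10.76 TPM in replicate 2 (10.3 ± 0.721, SD, n = 2). Gata3 (chr2:9857078-9890034, minus strand), its paralog and a target of the selector step, read 81.40 and 94.51 TPM (88.0 ± 9.27). Gata3 was therefore the more abundant GATA gene in each library, by 8.36-fold in replicate 1 and 8.78-fold in replicate 2. On the log2(TPM + 1) scale the difference was 2.98 ± 0.058, far more than its spread between the pools. Gata3 lay above 86.6% of all expressed genes and Gata2 above 38.3%.

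Tal1 (chr4:115056426-115071755, plus strand), which also drives blood formation, stood at 6.47 and 6.88 TPM (6.68 ± 0.290). Tal2 (chr4:53779705-53788712, plus strand), the paralog that the midbrain GABAergic lineage requires, stood at 5.07 and 4.20 TPM (4.64 ± 0.615). Tal1 was the higher in both libraries, and Tal2 minus Tal1 was -0.30 in replicate 1 and -0.60 in replicate 2 on the log2(TPM + 1) scale. The mean of this difference, -0.45 ± 0.21, was about 2 times its SD and is the least even of the paralog differences.

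Sox14 (chr9:99874106-99876170, minus strand), a SoxB2 repressor gene that marks a subset of midbrain and pretectal GABAergic neurons, read 61.00 and 73.56 TPM (67.3 ± 8.88). It was the second of the 6 transcription factor genes after Gata3. Helt (chr8:46292039-46294671, minus strand), a bHLH-Orange repressor gene of GABAergic progenitors, read 2.78 and 3.48 TPM (3.13 ± 0.495), from 93 and 120 counts. Helt was the lowest of the 9 genes in each library, 31.4-fold below Gad1 on average over all transcripts, and it still lay above 16.2% of expressed genes.

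Gad1 (chr2:70553072-70602014, plus strand) was the highest gene of the set over all its transcripts, at 92.36 and 104.49 TPM (98.4 ± 8.58), above 88.2% of expressed genes. Gad2 (chr2:22622205-22693874, plus strand) read 50.23 and 57.31 TPM (53.8 ± 5.01). Gad1 exceeded Gad2 1.84-fold in replicate 1 and 1.82-fold in replicate 2, a difference of 0.86 ± 0.0074 on the log2(TPM + 1) scale. Much of that gap lay in transcripts with no annotated coding sequence. Over protein coding transcripts only, a comparison added after the transcript values were seen, Gad1 exceeded Gad2 1.11-fold and 1.13-fold, a difference of 0.16 ± 0.018. On that scale Gad1 read 37.04 and 41.28 TPM and Gad2 33.38 and 36.56 TPM. Gad1 was no longer the highest gene: it came after Gata3 (72.35 and 86.53 TPM) and Sox14 (61.00 and 73.56 TPM). The Gad1 sum includes transcripts other than the full-length one, such as Gad1-205 (3.39 and 4.51 TPM), which ends early. Between the full-length transcripts alone the direction was reversed. Gad1-201 read 30.18 and 32.37 TPM, below Gad2-201 at 33.38 and 36.56 TPM. The authors' deposited intervals of Gad1-201 and Gad2-201 overlapped in replicate 1 (23.8 to 32.1 and 31.5 to 33.6 TPM). In replicate 2 they did not (24.3 to 33.4 and 34.7 to 36.8 TPM).

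Slc32a1 (chr2:158610767-158615748, plus strand) was far below both decarboxylase genes at 8.62 and 8.01 TPM (8.32 ± 0.431). Gad1 exceeded it 10.7-fold and 13.0-fold, and Gad2 5.83-fold and 7.15-fold. Over protein coding transcripts only, the folds were 4.30 and 5.15 for Gad1 and 3.87 and 4.56 for Gad2. Over all transcripts, on the log2(TPM + 1) scale these differences were 3.41 ± 0.19 and 2.55 ± 0.20, each many times its SD. Both differences were thus larger than those within the GAD and TAL pairs. That of Gad1 was also larger than that of Gata3 and Gata2 (2.98), and that of Gad2 was smaller. Over protein coding transcripts only, both (2.11 and 1.95) were below that of Gata3 and Gata2 (2.83).

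In the order of the 9 means, Gad1, Gata3, Sox14, Gad2, Gata2, Slc32a1, Tal1, Tal2 and Helt, 7 of the 8 neighbouring pairs had ranges that did not overlap. The exception was Gad1 and Gata3, since Gad1 in replicate 1 (92.36 TPM) was below Gata3 in replicate 2 (94.51 TPM). Within each library the higher neighbour was above the lower in all 8 pairs. Over protein coding transcripts the order began Gata3, Sox14, Gad1, and the other 6 positions were as before. The widest step was between Gad2 and Gata2, whose nearest values were 50.23 and 10.76 TPM.

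The transcript tables list 27 transcripts for the 9 genes, of which 13 took 5% or more of their gene in both libraries. For Gad1 the leading transcript was Gad1-206, annotated as a processed transcript without a coding sequence, with 58.53% of the gene's abundance in replicate 1 and 58.68% in replicate 2. In level it stood at 54.06 and 61.31 TPM. Gad1-201, which encodes the full-length enzyme, took 32.68% and 30.98%. All protein coding transcripts of Gad1 together took 40.1% and 39.5%.

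The 2 transcripts share 2919 exonic nt. Gad1-206 lacks the first 2 exons of Gad1-201 (291 and 143 nt), the second of which holds the start codon, and begins instead with an exon of 77 nt between exons 2 and 3 of Gad1-201. That exon is the only stretch of Gad1-206 that Gad1-201 lacks, while Gad1-201 has 436 nt that Gad1-206 lacks. The exon is shown for that reason, all of it in capitals because Gad1-201 has none of it.
Gad1-206 exon 1, chr2:70566377-70566453, plus strand: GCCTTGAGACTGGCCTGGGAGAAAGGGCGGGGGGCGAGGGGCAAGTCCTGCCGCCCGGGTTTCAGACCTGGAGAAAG
The 2 transcripts' shares were split from reads that fell mostly in shared exons, and the authors' posterior SD of the Gad1-206 count was 148 of 3658 in replicate 1 and 167 of 4283 in replicate 2.

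**Figure D2:**
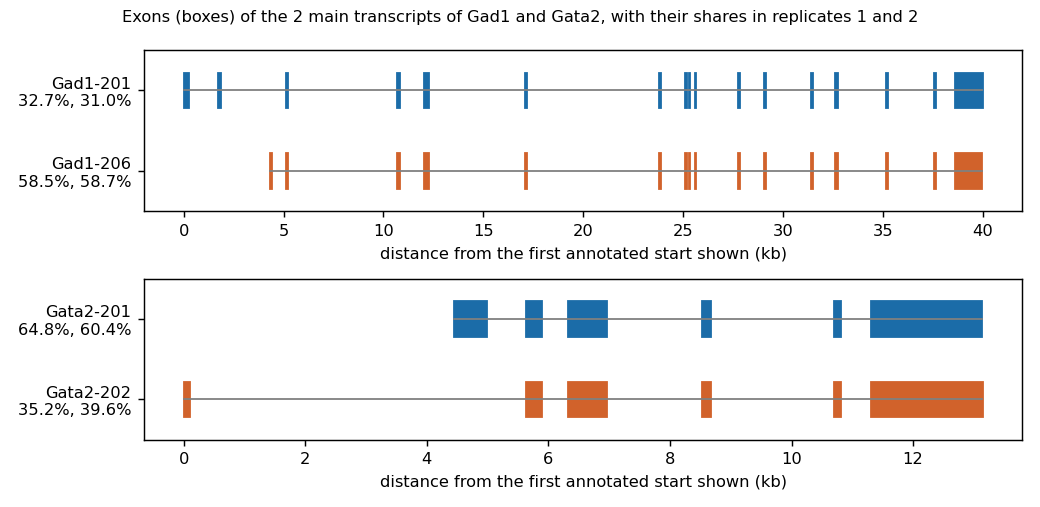
Exons (boxes) of the main transcripts of Gad1 and Gata2 against distance in kb from the first start shown, from GENCODE M21, with each transcript's share in replicates 1 and 2 beside its name. Gad1-206 lacks the first 2 exons of Gad1-201, and Gata2-202 begins upstream of Gata2-201 with its own first exon.

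Gad1 also has transcripts that end early, a form known from embryonic brain in which an added exon brings a stop codon and leaves a truncated protein without enzyme activity. None of them reached 5% of the gene alone, so they are named here after their values were seen. The exon lies between exons 6 and 7 of Gad1-201 and is in 3 transcripts, Gad1-203, Gad1-205 and Gad1-207. Together these stood at 3.96 TPM in replicate 1 and 5.69 TPM in replicate 2, or 4.29% and 5.45% of Gad1. Gad1-205 has 669 coding nt against 1779 in Gad1-201, and its last 34 coding bases are in the added exon, printed with the stop codon in capitals.
Gad1-205 exon 7, chr2:70584420-70584456, plus strand: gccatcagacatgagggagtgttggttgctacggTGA

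Gad2 was led by the full-length coding transcript Gad2-201, with 66.45% of its abundance in replicate 1 and 63.79% in replicate 2. The rest was Gad2-202, a processed transcript of 721 nt, with 33.55% and 36.21%. Being short, Gad2-202 drew only 5.27% and 5.89% of the gene's counts, so a small number of reads set a large part of the gene's TPM. Its first 132 nt lie between exons of Gad2-201 and are absent from it. They are printed in capitals with the next 20 bases, which both transcripts hold, in lower case.
Gad2-202 5′ end, chr2:22623304-22623455, plus strand: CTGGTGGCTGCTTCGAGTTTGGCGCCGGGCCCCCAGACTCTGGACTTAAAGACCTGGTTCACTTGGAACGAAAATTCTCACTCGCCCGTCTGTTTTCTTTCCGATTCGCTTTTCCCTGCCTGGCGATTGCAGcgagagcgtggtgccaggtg

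**Figure D3:**
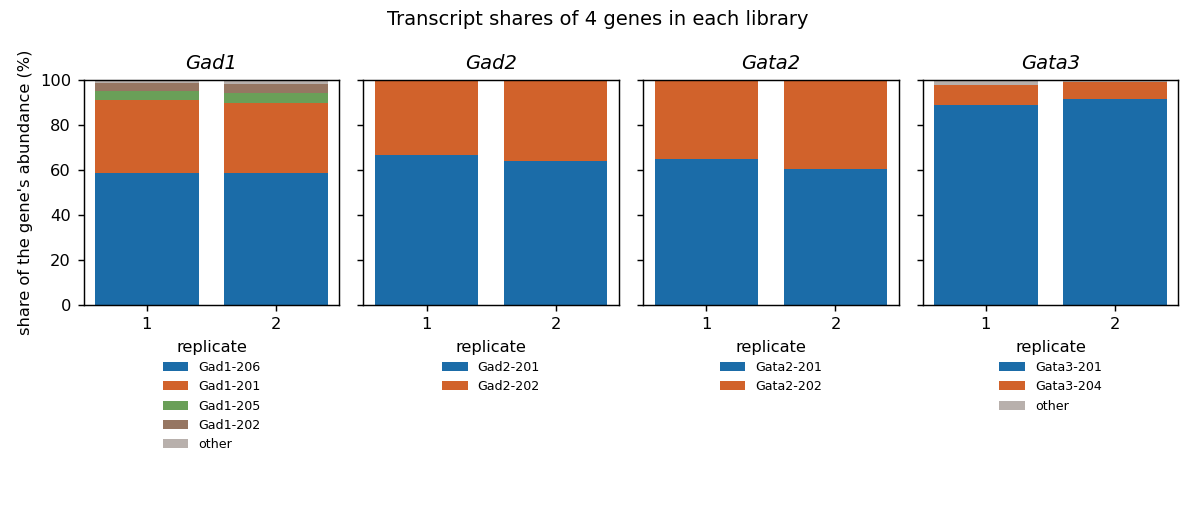
Share of each gene's abundance (percent, stacked) taken by its transcripts in replicates 1 and 2 for Gad1, Gad2, Gata2 and Gata3. The leading transcript is the same in both libraries for each gene. For Gad1 it is Gad1-206 (58.53% and 58.68%), annotated without a coding sequence.

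Gata2 has 2 promoters, and both were represented. Gata2-201, from the proximal start, took 64.78% and 60.39%, and Gata2-202, from the distal start, took 35.22% and 39.61%. Both encode the same factor, and reads that tell them apart fall almost wholly in the first exons. The shares rest on a Gata2-201 of 3241 nt in the deposited tables, while the model drawn, from GENCODE M21, has 3571 nt. The authors' posterior SD of the Gata2-202 count was 38.0 reads in replicate 1 and 46.0 in replicate 2. The 120 bases before the distal start are shown because that start took over 35% of the gene in both libraries.
Gata2 distal upstream, chr6:88193771-88193890, plus strand: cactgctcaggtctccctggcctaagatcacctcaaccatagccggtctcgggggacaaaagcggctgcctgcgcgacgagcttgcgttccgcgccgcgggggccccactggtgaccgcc

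Gata3 was carried by the coding transcript Gata3-201 (88.89% and 91.30%), with the short processed transcript Gata3-204 at 8.87% and 7.93% from under 1% of the gene's counts. Sox14-201 took 100% and 97.05% of Sox14, and Tal1-201 took 96.52% and 96.85% of Tal1. Tal2, Helt and Slc32a1 have 1 transcript each in the tables. The leading transcript was the same in both libraries for 9 of 9 genes.

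RefSeq windows from 250 bases before to 50 after a start (GRCm38.p6) were available for all 9 genes, 11 windows in all. Both strands were searched for AGATAA or TGATAA, letters that GATA factors bind, and for CAGATG and CAGCTG, E-box letters that bHLH factors bind; no match overlapped a match of another motif. A GATA word was in 1 of 11 windows, against 18.6% of 32851 promoters of the same length. That window was the upstream start of Tal1, whose 215 bases before the start are printed with the match, TTATCT on the plus strand, in capitals.
Tal1 upstream, chr4:115056211-115056425, plus strand: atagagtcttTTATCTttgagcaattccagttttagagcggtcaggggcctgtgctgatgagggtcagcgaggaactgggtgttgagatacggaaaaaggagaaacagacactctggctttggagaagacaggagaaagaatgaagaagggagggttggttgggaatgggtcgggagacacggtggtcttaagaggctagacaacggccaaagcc
CAGATG was in 2 of 11 windows, those of Tal1 and Gad2, against 17.2% of promoters, and CAGCTG in 2 of 11, those of Gata2 and Gata3, against 16.3%. A match in a window is a description of its letters, not a bound site.

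Between the pools, each gene was compared by an exact binomial test (two-sided) of its expected counts, with Benjamini-Hochberg adjustment over 18269 genes. Such a p compares these 2 libraries, not conditions. A call needed a 2-fold difference and an adjusted p under 0.05. By that rule 0 of 9 members were called, where the background is 1.63% of all genes tested. By adjusted p alone, 4 of 9 were higher in replicate 2, where 9.18% of all genes tested were, and 0 of 9 were higher in replicate 1, where 10.1% were. The 4 genes were Gata3, Sox14, Gad1 and Gad2, the same that form the upper tier and hold the most counts.

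**Figure D4:**
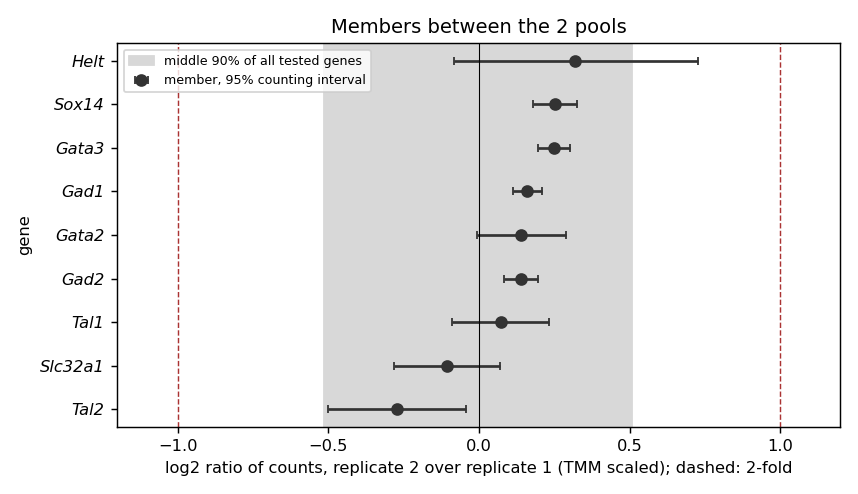
Log2 ratio of TMM-scaled counts, replicate 2 over replicate 1, for each of the 9 genes with its 95% counting interval, beside the middle 90% of all tested genes (grey, -0.51 to 0.51) and 2-fold lines (dashed). All 9 points lie within the grey band, 7 of them to the right of 0, and the interval of Helt runs past it.

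Gata3 held 5327 and 6539 counts, a log2 ratio of 0.25 (95% counting interval 0.20 to 0.30, exact binomial test, adjusted p = 1.1e-18). Sox14 held 2801 and 3446 counts with the same log2 ratio, 0.25 (0.18 to 0.32, exact binomial test, adjusted p = 3.6e-10). Gad1 held 6236 and 7202 counts, a log2 ratio of 0.16 (0.11 to 0.21, exact binomial test, adjusted p = 5.5e-09). Gad2 held 4646 and 5288 counts, a log2 ratio of 0.14 (0.08 to 0.20, exact binomial test, adjusted p = 3.1e-05). A deeply counted gene passes at a small ratio. Among the 3960 genes averaging at least 2500 counts, a group set after these values were seen, 20.1% were higher in replicate 2 by the same adjusted p. Within that group the middle 90% of log2 ratios ran from -0.13 to 0.14, and the ratios of Gata3 and Sox14 exceeded 99.4% of the group, that of Gad1 96.4% and that of Gad2 94.5%.

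The other 5 genes did not pass. Gata2 held 706 and 804 counts, a log2 ratio of 0.14 (-0.01 to 0.29, exact binomial test, adjusted p = 0.186), a value equal in size to that of Gad2 from fewer reads. Tal1 held 618 and 671 counts (log2 ratio 0.07), Slc32a1 543 and 521 (-0.11) and Helt 93 and 120 (0.32), with intervals that each include 0. Tal2 was the member with the lowest ratio, with 340 and 291 counts or -0.27 (-0.50 to -0.04, exact binomial test, adjusted p = 0.0815). In all, 7 of 9 ratios were above 1, against 49.2% of all genes tested, and the median log2 ratio was 0.14 against -0.0026. Scaled by the spike-ins instead, every log2 ratio fell by 0.085, so that Tal1 turned below 1 and 6 of 9 were above, while 28.0% of all genes tested were above 1 and their median log2 ratio was -0.087.

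RNA of blood cells was present in both pools, and the erythroid genes had a higher sum in replicate 1. The part of blood in the members' values was not tested. The 11 erythroid genes, 9 of them expressed, summed to 14898 TPM in replicate 1 and 11699 in replicate 2. They were led by the globin genes Hba-a2 (5945 TPM), Hbb-bs (3025 TPM) and Hba-a1 (2253 TPM). Gata1, the erythroid GATA factor gene, read only 0.35 and 0.09 TPM, and Klf1 0.54 and 0.64 TPM. Of these genes 7 were higher in replicate 1 by adjusted p alone, against 10.1% of all genes tested. In replicate 2, 1 was higher, against 9.18%: the embryonic globin gene Hbb-y (121 and 171 TPM), which was named after its values were seen.

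Other blood and vessel cells use Gata2 and Tal1 as well. Of 6 mast cell and megakaryocyte genes 3 were expressed, Pf4 (42.3 TPM), Gp1bb (13.0 TPM) and Itga2b (7.40 TPM), and the list summed to 68.1 and 60.3 TPM. The mast cell genes Cpa3 (0.13 and 1.08 TPM) and Cma1 (0.31 and 1.28 TPM) were called higher in replicate 2 from 4 against 35 and 7 against 30 counts. By the same rule 1.63% of all genes tested were called in either direction. Of the blood progenitor genes 3 of 4 were expressed, Kit (31.1 TPM), Cd34 (22.9 TPM) and Lyl1 (3.10 TPM), while Runx1 stood at 0.45 TPM. Neural cells also express Kit. All 8 endothelial genes were expressed, with sums of 230 and 202 TPM, led by Cldn5 (97.7 TPM), Esam (39.2 TPM) and Kdr (20.5 TPM). How much of Gata2 and Tal1 came from these cells was not tested.

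**Figure D5:**
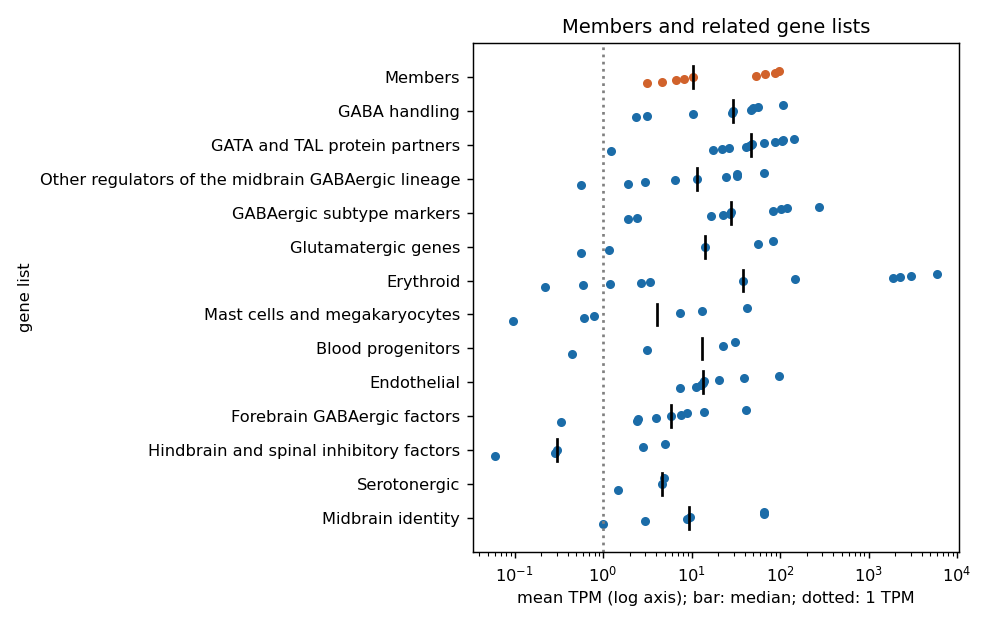
Mean TPM over the 2 libraries (log axis) of each gene in the set of 9 (orange) and in 13 related lists (blue), with list medians as black bars and 1 TPM dotted. The set of 9 spans 3.13 to 98.4 TPM, and the partner and GABA handling lists have medians of 47.0 and 29.1 TPM.

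Genes of GABA handling, a list that includes uptake, breakdown and cofactor genes, were all expressed, 9 of 9, with a median of 29.1 ± 1.93 TPM. Among them were the GABA transaminase gene Abat (56.0 TPM) and Pdxk (50.58 and 49.37 TPM), whose product makes the cofactor of the decarboxylases. By adjusted p alone 1 of the 9 was higher in replicate 2, against 9.18% of all genes tested. In replicate 1, 3 were higher, against 10.1%, and 0 were called, against 1.63%. Slc32a1 was under both Abat and Pdxk in each library.

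Of the protein partners of GATA and TAL factors, 13 of 13 were expressed at a median of 47.0 ± 1.23 TPM. The LIM-only adaptor genes Lmo3 (142 TPM) and Lmo1 (109 TPM) and the LIM binding gene Ldb1 (106 TPM) led, each above every GATA or TAL gene of the set. By adjusted p alone 4 were higher in replicate 2 and 3 in replicate 1, against 9.18% and 10.1% of all genes tested. Of the list 0 were called, against 1.63%. These adaptors serve many LIM factors and are not limited to the GABAergic lineage.

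Other regulators of the midbrain GABAergic lineage had 8 of 9 genes expressed and a median of 11.5 ± 1.81 TPM, close to the 10.3 TPM of the 9 members. Otx2 (66.2 TPM), which holds midbrain identity, and the LIM homeobox genes Lhx5 (32.9 TPM) and Lhx1 (32.8 TPM) led. Pax2 was under the threshold at 0.56 TPM in each library. By adjusted p alone 3 were higher in replicate 2 and 1 in replicate 1, against 9.18% and 10.1% of all genes tested. Of these regulators 0 were called, against 1.63%.

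Of the markers of GABAergic subtypes 10 of 10 were expressed (median 27.8 ± 1.21 TPM), highest among them the peptide genes Sst (278 TPM) and Npy (102 TPM) and the calcium binding protein gene Calb2 (121 TPM). By adjusted p alone 1 was higher in each replicate, against 9.18% of all genes tested in replicate 2 and 10.1% in replicate 1. The gene higher in replicate 1 was Npy (122.85 and 81.16 TPM). Which cells carried these RNAs was not tested. The glutamatergic list, 4 of 5 expressed, was led by the vesicular transporter gene Slc17a6 (83.3 TPM), then Pou4f1 (55.7 TPM) and Pou4f2 (14.4 TPM). Slc17a6, which loads glutamate as Slc32a1 loads GABA, was the more abundant of these transporter genes in both libraries (83.67 and 82.88 against 8.62 and 8.01 TPM). Within this list 0 of 5 ratios were above 1, against 49.2% of all genes tested. By adjusted p alone 2 genes were higher in replicate 1, against 10.1%.

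Gad1, Gad2 and Slc32a1 are shared by GABAergic cells of other brain regions, so factors of those regions were read too. Forebrain GABAergic factors passed 1 TPM in 8 of 9 cases (median 5.84 ± 0.983 TPM), with the highest values in Dlx1 (40.8 TPM) and Dlx5 (13.7 TPM). Their sum was 89.3 and 82.8 TPM, and 3 were higher in each replicate by adjusted p alone. Of all genes tested, 9.18% were higher in replicate 2 and 10.1% in replicate 1. Hindbrain and spinal inhibitory factors were expressed in 2 of 5 cases, Gsx1 (4.99 TPM) and Pax8 (2.80 TPM), with Ptf1a at 0.305 TPM next and a list median of 0.32 TPM. Serotonergic genes, of interest because those neurons of the hindbrain use Gata2 and Gata3, were all 3 expressed at low level: Tph2 at 4.87 TPM, Slc6a4 at 4.67 TPM and Fev at 1.47 TPM. Of these 3 genes, 1 was higher in replicate 2 by adjusted p alone and 0 in replicate 1, against the same 9.18% and 10.1%. Tph2 was the higher gene, at 3.76 and 5.97 TPM, a log2 ratio of 0.67 (exact binomial test, adjusted p = 1.4e-06). What share of the decarboxylase or GATA transcripts came from such cells was not tested.

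Strand use is not given in the sources used here, so reads of overlapping genes could be exchanged. Gata3 shares 155 exonic nt with the antisense gene Gm13256 (0.51 and 0.39 TPM) and 77 nt with 9230102O04Rik (3.25 and 3.88 TPM), and overlaps 4930412O13Rik (1.81 and 1.09 TPM) in no exon. Gad1 overlaps the antisense gene Gad1os (1.25 and 0.94 TPM) with no shared exonic base. Gad2 holds Gm23636, listed at 0, and the microRNA gene Mir3967, not analysed here. Slc32a1 shares 697 exonic nt with the antisense gene Gm14205, listed at 0 in both libraries. How reads over this stretch were assigned was not tested. Slc32a1 was also the member whose counts had a posterior SD well above 0 (6.66 and 5.47 reads).

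Genes with the most similar values were sought among protein coding genes by distance in log2(TPM + 1) over the 2 libraries. Nearest to Gad1 were U2surp, Bola2 and Son, from a distance of 0.0208. Nearest to Gata3 were Rraga, Fnbp4 and Pdap1, and nearest to Gata2 were Pcdh15, Arhgef18 and Mthfs. With 2 libraries such nearness means only a like level in both.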

How the data were processed

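The authors deposited a gene and a transcript table per library. Per the file headers these hold expected counts, TPM, FPKM, the percent of a gene's abundance taken by each transcript, and posterior means, posterior SDs and interval bounds of these (the level of the bounds is not stated). The posterior SDs are used here as a deposited score. Build mm10 and annotation GENCODE M4 come from the notes deposited beside the tables. The sources used here do not name the aligner, counter or strand setting. GENCODE M21, also mm10, supplied names, exons and coordinates, and 24 of the members' 27 transcripts had the same length in both releases. Promoters came from the RefSeq table.

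The 9 members and the gene lists were chosen with earlier results of these data known. All members, their transcripts at 5% or more in both libraries, the 3 highest genes of each list and called list genes were named, except a few list genes that are not reported here. TPM is scaled over all rows, spike-ins included, and log2 differences used TPM + 1. Between the libraries each gene had an exact binomial test (two-sided) on expected counts rounded to whole numbers, with TMM library sizes (edgeR 4.0.16, R 4.3.3), over genes averaging at least 10 counts, with Benjamini-Hochberg adjustment. Ratios added 0.5 to each count. The test was tried on simulated counts first. The pools are biological replicates per the labels. Intervals and p cover counting error only, since the test has no term for variation between pools. PCR copies could not be told apart, so even for counting error the intervals may be too narrow. Alternatives changed the filter, scaling, pseudocount, unit and test (DESeq2 1.42.0 size factors among them), or left out either library. Protein sequences were not used here.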

Additional observations from a re-analysis of the deposited data

How the results depend on the processing

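No paired analysis was possible because there is 1 group. No difference between paralogs changed sign in the settings tried. Between full-length transcripts alone, which was not among those settings, Gad1-201 was below Gad2-201 in both libraries. Their deposited intervals overlapped in replicate 1. Over coding transcripts only, Gad1 fell from the first to the third place in the order of levels, and under spike-in scaling the ratio of Tal1 between the pools turned below 1. At thresholds of 5 and 10 TPM 7 and 4 members passed in both libraries in place of 9. With FPKM the members' median was 6.13. Gad1 minus Gad2 on the log2 scale was 0.87 with a pseudocount of 0.1, 0.90 from posterior means, 0.85 from FPKM, 0.44 from counts and 0.16 over coding transcripts only. Gata3 minus Gata2 was 3.09 with a pseudocount of 0.1, 2.91 from FPKM and 2.83 over coding transcripts only. Tal2 minus Tal1 was -1.03 from counts, which ignore length. The main test called 298 genes between the libraries. It called 67 at a mean of 50 or more counts and 3524 by adjusted p alone, and edgeR's exact test with a preset coefficient of variation of 0.1 called 139. Members called were 0, and 4 by adjusted p alone. The share of Gad1-206 was 58.8% from posterior means. The coding-only and spike-in values were chosen after seeing the data. For the values that answer a comparison, 16 settings moved a value by more than its SD or, for a count, by more than 1.5 times, and 40 did not. The 40 include settings that left out either library. Such a setting could not move a mean by more than its SD, so it says nothing about stability. The cause of these moves was not tested, except where length scaling or the filter is itself the change. Depth limits Helt most, at 93 and 120 counts.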
